A study of Caenorhabditis elegans with 2 samples.

Results

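The strong autosomal promoter regions of a chromatin immunoprecipitation sequencing (ChIP-seq) study of LIN-39 are described here. From the 30000 candidate regions that the authors listed on both replicates together, regions were chosen by their measured signal (ranks 1 to 2000) and by position. A member lay on 1 of the 5 autosomes, with its summit from 1000 bp upstream to 200 bp downstream of the 5′ end of a protein-coding transcript. This gave 509 regions, which were 33.1% of the 1537 autosomal regions at those ranks. All other regions of the same promoter window, beyond rank 2000 on the autosomes, served as the weaker set and numbered 6079. The signal and the window chose the members, so neither is a finding. The samples were 2 biological replicates of whole L2 larvae of mixed sex of Caenorhabditis elegans strain OP18, with genotype unc-119(ed3) III and the integrated transgene wgIs18, which carries lin-39 tagged with eGFP, and the antibody is labelled lin-39. Both carried the same alleles, no second condition was measured, and no input or mock library was analysed here. Read depth is unknown from these lists. Intervals are exact Clopper-Pearson intervals at 95% and cover the counting of regions only.

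LIN-39 is the Hox transcription factor of the worm's mid-body. It is known from the cells that form the vulva, from neurons of the ventral cord and from neuroblasts that migrate, and acts usually together with the Pbx-class partner CEH-20 and the Meis-class partner UNC-62. Hox proteins are known to bind short AT-rich words, and with a Pbx partner a longer composite word. Promoters of broadly expressed genes in the worm are open in most cells, many of them serve genes on both strands, and many transcripts receive a trans-spliced leader, so that an annotated 5′ end may differ from the true start of transcription. In whole larvae, binding in a small set of cells and weak binding in many cells cannot be told apart.

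The sequences of 8 members show what lay under the strongest summits. On each of chromosomes II, III, IV and V they are the strongest member with the word GAGAGA on either strand within 100 bp of the summit and the strongest without it. Each runs 5′ to 3′ along the coding strand of the assigned gene and is centred on the summit, and all are from RefSeq's WBcel235 genome, which has the chromosome lengths of ce11. In the 4 sequences with the word, capitals mark GAGAGA or its reverse complement TCTCTC. On II this was the region of dnj-13, a gene for an Hsp40-type cochaperone (chrII:11545391-11545591, plus strand). On III it was that of K12H4.5 (chrIII:8043865-8044065, plus strand). On IV it was that of miz-1 (chrIV:10821803-10822003, plus strand), and on V that of drap-1, which encodes a corepressor of the NC2 type (chrV:9731050-9731250, plus strand).
dnj-13: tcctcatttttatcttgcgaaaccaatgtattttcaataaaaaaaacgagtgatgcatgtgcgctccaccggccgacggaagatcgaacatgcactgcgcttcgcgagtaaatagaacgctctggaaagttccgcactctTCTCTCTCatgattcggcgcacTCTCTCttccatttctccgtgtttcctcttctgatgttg
K12H4.5: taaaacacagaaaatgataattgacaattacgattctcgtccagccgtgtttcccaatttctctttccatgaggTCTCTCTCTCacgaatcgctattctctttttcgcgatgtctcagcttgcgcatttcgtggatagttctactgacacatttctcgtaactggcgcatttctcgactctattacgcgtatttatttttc
miz-1: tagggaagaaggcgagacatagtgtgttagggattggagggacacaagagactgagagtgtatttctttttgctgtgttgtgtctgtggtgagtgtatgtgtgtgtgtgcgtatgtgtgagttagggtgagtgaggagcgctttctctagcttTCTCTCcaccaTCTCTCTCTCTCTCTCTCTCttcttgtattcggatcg
drap-1: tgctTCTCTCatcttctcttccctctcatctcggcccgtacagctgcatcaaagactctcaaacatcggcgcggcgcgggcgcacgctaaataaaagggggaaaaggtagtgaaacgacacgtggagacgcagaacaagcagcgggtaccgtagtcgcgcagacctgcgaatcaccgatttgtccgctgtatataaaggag

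The word was not spread alike in these 4. The dnj-13 window held 3 overlapping or separate matches, the K12H4.5 window also 3, the miz-1 window 9 and the drap-1 window 1. In the 4 strongest members without GAGAGA, capitals mark a match to any of the other 8 words searched, which are spelled out below. They were cdc-48.1 on II (chrII:10563461-10563661, minus strand), rpl-35 on III (chrIII:7854568-7854768, plus strand), rpl-15 on IV (chrIV:654820-655020, minus strand) and C47E8.4 on V (chrV:14685692-14685892, minus strand). The promoter window of the last region also held the 5′ end of hsp-90, the gene of the Hsp90 chaperone, on the other strand, and its summit lay in an annotated intron.
cdc-48.1: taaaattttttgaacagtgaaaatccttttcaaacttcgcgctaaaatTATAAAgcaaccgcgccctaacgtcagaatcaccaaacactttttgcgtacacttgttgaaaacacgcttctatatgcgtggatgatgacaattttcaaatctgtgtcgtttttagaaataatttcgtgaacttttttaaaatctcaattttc
rpl-35: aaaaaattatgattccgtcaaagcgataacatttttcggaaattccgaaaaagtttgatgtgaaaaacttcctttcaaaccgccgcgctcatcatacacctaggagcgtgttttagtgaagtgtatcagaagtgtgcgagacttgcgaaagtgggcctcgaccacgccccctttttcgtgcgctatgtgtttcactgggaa
rpl-15: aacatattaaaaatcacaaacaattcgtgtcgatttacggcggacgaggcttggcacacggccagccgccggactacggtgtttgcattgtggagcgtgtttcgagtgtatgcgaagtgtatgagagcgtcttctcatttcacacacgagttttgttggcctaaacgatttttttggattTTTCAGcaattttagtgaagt
C47E8.4: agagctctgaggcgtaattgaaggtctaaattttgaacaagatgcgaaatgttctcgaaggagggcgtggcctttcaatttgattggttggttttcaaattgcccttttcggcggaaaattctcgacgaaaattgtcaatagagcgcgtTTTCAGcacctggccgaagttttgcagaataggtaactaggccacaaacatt

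The match in cdc-48.1 was TATAAA and that in both rpl-15 and C47E8.4 was TTTCAG. The rpl-35 window held none of the 9 words. No letters of the Hox with Pbx word TGATNNAT stood within 100 bp of these 4 summits.

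The members' signal value, the authors' own score per region, ran from 28.8 to 141.4 with a median of 33.2. The strongest member was at II:10563406-10563715, 154 bp upstream of cdc-48.1, which encodes the p97-type AAA ATPase of protein quality control. It had rank 4 of the whole list, rank 5 in replicate 1 with a signal of 89.1 and rank 22 in replicate 2 with a signal of 52.2. The next was at III:8043810-8044119, 522 bp upstream of K12H4.5, with ranks 8 and 12 in replicates 1 and 2. The region at I:1873815-1874124 lay 38 bp upstream of tub-2 and had ranks 24 and 3. These 3 regions were high in both replicates.

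Several of the strongest members had coding 5′ ends on both strands in their window. The region at II:8329019-8329328 had the 5′ ends of hel-1, a DEAD-box helicase gene, and of C26D10.4 in its window, with ranks 12 and 17 in replicates 1 and 2. The region at IV:654765-655074 lay 344 bp upstream of rpl-15, a large-subunit ribosomal protein gene, with K11H12.8 on the other strand. At IV:4749913-4750222 the nearest 5′ end was that of Y17G9B.5, 172 bp away, and rpl-20 started on the other strand (ranks 22 and 19). At II:6951403-6951712 the summit was 32 bp downstream of the 5′ end of ceh-38, a ONECUT homeobox gene, with malt-1, the paracaspase gene, on the other strand (ranks 41 and 13). The region of tasp-1, a taspase gene (III:10759104-10759413), shared its window with K01G5.10 and had ranks 36 and 23.

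Among the other members of the strongest 15, rpl-35 and rpl-3 had signals of 97.1 and 88.4. The regions of H41C03.3 and T23G4.127 lay near the upstream edge of the window, 959 and 951 bp from the 5′ end. The region of sor-1, a gene known for keeping Hox genes repressed, lay 496 bp upstream at III:8417517-8417826 and had ranks 31 and 33. The region of zfp-1, the worm's AF10-type chromatin gene, lay 680 bp upstream in an intron (III:8801984-8802293) and was stronger in replicate 2, with rank 6, than in replicate 1, with rank 136. The region at egl-30, which encodes a Gq alpha subunit, lay 44 bp upstream (I:1835462-1835771) and had rank 4 in replicate 2 and 4717 in replicate 1. That gene was also the one with the most members, 3. Of the 495 genes assigned, 482 had 1 member and 12 had 2.

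The members just inside and just outside the limits differed little from each other. The last members by rank were at cyp-13A4 (rank 1991, signal 28.88) and sulp-8 (rank 1999, signal 28.85). The next promoter regions were at T05A7.11 (rank 2002, signal 28.84) and Y51A2A.4 (rank 2004, signal 28.84). At the upstream edge, ptp-3 and mesp-1 lay inside at 1000 and 992 bp, while pat-2 and srt-56 lay outside at 1007 and 1004 bp. At the downstream edge, rml-4 and idpb-2 lay inside, 200 and 197 bp into the gene, and unc-82 and srxa-14 outside, at 203 and 204 bp.

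One question was whether both replicates held these regions. The list of each replicate was ranked by its own signal, and the region that overlapped a member most gave the member's rank there. All 509 members were on at least 1 replicate's list and 461 (90.6%) on both. The rank ran from 5 to 29290 in replicate 1, with a median of 1351.5, and from 3 to 27559 in replicate 2, with a median of 1730.5. Only 130 members (25.5%) were among the 2000 strongest of both replicates. A further 157 (30.8%) were so in replicate 1 alone, 120 (23.6%) in replicate 2 alone, and 102 (20.04%) in neither. Sharing fell with rank: it held for 80.4% of members at ranks 1 to 311, for 20.6% at ranks 312 to 1000 and for 2.59% after rank 1000. The list from both replicates ranks by their joint reads, so these counts are a description and not a test.

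**Figure D1:**
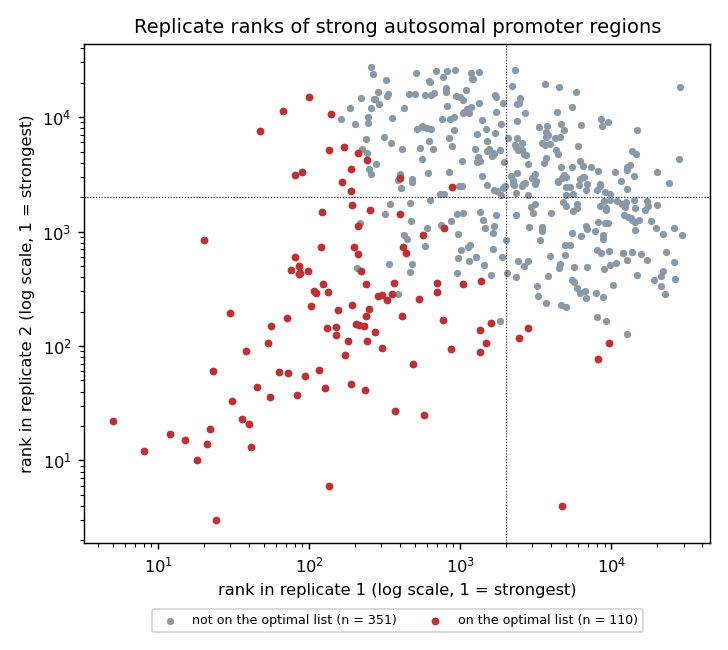
Rank of each member in replicate 1 (x axis, log scale) against its rank in replicate 2 (y axis, log scale), 1 being the strongest; red points are on the authors' optimal list, grey points are not, and dotted lines mark rank 2000. The 461 members found on both lists are drawn, and 130 of them lie in the lower left field, where both ranks are 2000 or less.

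Among the 461 members on both lists, wide gaps between replicates were found in both directions. After egl-30, those with the largest ratio toward replicate 2 were at C06A6.2 (IV:7845603-7845912, rank 8116 in replicate 1 and 77 in replicate 2) and pqn-21 (I:6780136-6780445, ranks 12750 and 128). Toward replicate 1 they were at pcyt-2.1 (I:2084877-2085186, ranks 67 and 11218), F25B4.4 (V:5684579-5684888, ranks 47 and 7628) and dip-2 (I:4941167-4941476, ranks 100 and 14828). In these 6 cases the rank of the strongest overlapping region was the same as that of the region of largest overlap.

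For a test that the choice did not fix, the promoter rule was applied to 1 replicate's 2000 strongest regions and the other replicate was read. Of 524 such regions of replicate 1, 134 (25.6%) overlapped one of the 2000 strongest of replicate 2. Autosomal intronic regions outside promoters were found again less often, 51 of 383 (13.3%; Fisher's exact test, adjusted p = 1.2e-05 over 4 tests). Distal intergenic regions were found again at 23.5% (96 of 408), and this difference did not pass (Fisher's exact test, adjusted p = 0.655). In the reverse direction 131 of 463 regions (28.3%) were found again, against 14.99% of 367 intronic regions (Fisher's exact test, adjusted p = 1.2e-05) and 27.7% of 346 intergenic ones (adjusted p = 0.875). Among regions after rank 1000 of the choosing replicate the gap to intronic regions was 2.51 and 5.79 percentage points and did not pass (Fisher's exact test, adjusted p = 0.588 and 0.216).

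The next question was where within promoters the members stood. The median summit lay 277 bp upstream of a 5′ end. Of the 509 summits, 164 (32.2%) lay within 250 bp upstream, 120 (23.6%) from 251 to 500 bp upstream, 156 (30.6%) farther upstream and 69 (13.6%) at or downstream of the 5′ end. In the weaker set the same classes held 24.5%, 19.97%, 35.8% and 19.7%. The share from 250 bp upstream to 200 bp downstream was 45.8% in members and 44.3% in the weaker set, a difference that did not pass (Fisher's exact test, adjusted p = 0.516). By annotation, 293 summits (57.6%) were intergenic, 109 (21.4%) in introns, 68 (13.4%) in coding sequence and 39 (7.66%) in untranslated exons. The weaker set had 47.3% in intergenic and 22.7% in coding sequence.

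**Figure D2:**
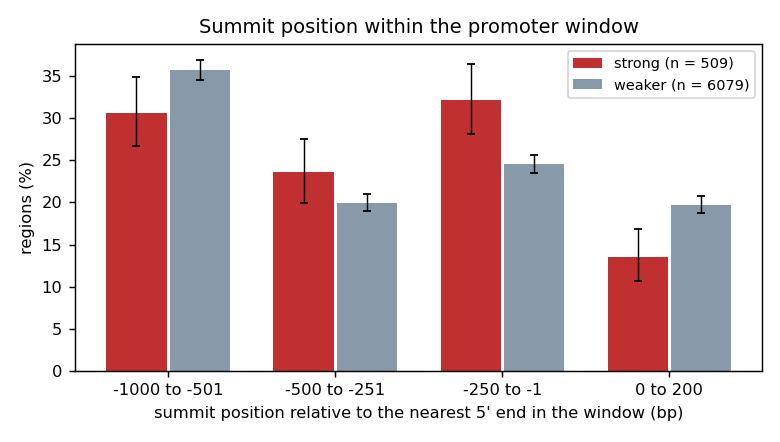
Share of regions (y axis, percent) by summit position relative to the nearest 5′ end in the window (x axis, bp, negative values upstream), for the 509 members in red and the 6079 weaker regions in grey; bars carry exact 95% intervals. Members are at 32.2% in the last 250 bp before the 5′ end and the weaker set at 24.5%, while downstream of it members are at 13.6% and the weaker set at 19.7%.

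Members more often had genes on both strands. Coding 5′ ends on both strands stood in the window of 84 members (16.5%, 95% interval 13.4 to 20.02) and of 9.18% of the weaker set (Fisher's exact test, adjusted p = 2.2e-06 over 3 tests). The share was 27.7% at ranks 1 to 311, 20.6% at ranks 312 to 1000 and 8.19% from there to rank 2000, against 9.22% in the next ranks down to 5000. Beside those named above, such members included the regions with the 5′ ends of rps-12 and ska-3, of lin-54 and rpl-12, of ifet-1 and rps-1, and of hsp-90 and C47E8.4.

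Small non-coding RNA genes also lay near members more often. A small nucleolar, spliceosomal, transfer or micro RNA gene stood within 500 bp of 21 member summits (4.13%) and of 1.61% of the weaker set (Fisher's exact test, adjusted p = 0.00049 over 3 tests). Of the 21, 15 were small nucleolar RNAs, which guide chemical changes to other RNAs, 5 were spliceosomal snRNAs and 1 was a microRNA, at rfc-4. The strongest of these members were at cdc-48.1, H41C03.3, ska-3 and egg-5; at egg-5 (I:4172073-4172382, ranks 23 and 60) the summit stood inside an snRNA gene. No member had a transfer RNA gene nearest and within 500 bp, which at 0 of 509 allows up to 0.589% by a limit of 3 counts and up to 0.722% by the exact interval, while the weaker set was at 0.543%. Without the members on the authors' optimal list, which holds the 311 strongest regions, the gap was 1.41 percentage points and did not pass (Fisher's exact test, adjusted p = 0.0654).

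The members were spread unevenly over the autosomes. Chromosome I held 123 (24.2%) against 16.1% of the weaker set (Fisher's exact test, adjusted p = 1.9e-05 over 5 chromosomes). Chromosome V held 110 (21.6%) against 30.9% (Fisher's exact test, adjusted p = 1.9e-05). Chromosomes II, III and IV held 101, 78 and 97 members and did not pass. Both differences were smaller in replicate 1 alone, where the same rule gave 524 regions: 3.74 percentage points for I and -1.74 for V, neither of which passed (Fisher's exact test, adjusted p = 0.16 and 0.708). In replicate 2 alone both passed, at 7.63 and -5.31 percentage points.

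The last questions concerned the sequence under the summits. The 9 words searched on both strands within 100 bp were GAGAGA, a GA repeat known from worm promoters, and TGATNNAT, the Hox with Pbx word. The others were TAATTA, a homeodomain core, TGATAA, the GATA-type word, and TGACTCA, the AP-1 word. The E-box CACGTG was searched as well, and TATAAA for the TATA box, GGGCGG for the GC box and TTTCAG for the splice acceptor. Sequence was not used to choose the members, but the words were chosen with earlier results of these data known. Of these 9 words, 5 differed between members and the weaker set (55.6%).

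GAGAGA stood at 162 of 509 members (31.8%, 95% interval 27.8 to 36.1) and at 13.5% of the weaker set (Fisher's exact test, adjusted p = 5.9e-23). It was at 14.5% of windows centred 1000 bp upstream and 11.8% of those downstream (exact McNemar test, adjusted p = 1.9e-10 and 3.3e-15). Its share fell from 42.9% at ranks 1 to 311 to 35.8% at ranks 312 to 1000 and 23.7% from there to rank 2000. Beyond rank 20000 it was 12.6%. Without those on the optimal list the gap to the weaker set was 15.2 percentage points (Fisher's exact test, adjusted p = 2.5e-13). In replicate 1 alone the gap was 13.5 percentage points and in replicate 2 alone 14.9. An uninterrupted GA run of 12 bp or more stood at 13 members (2.55%), and without such windows the gap was 16.9 percentage points.

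**Figure D3:**
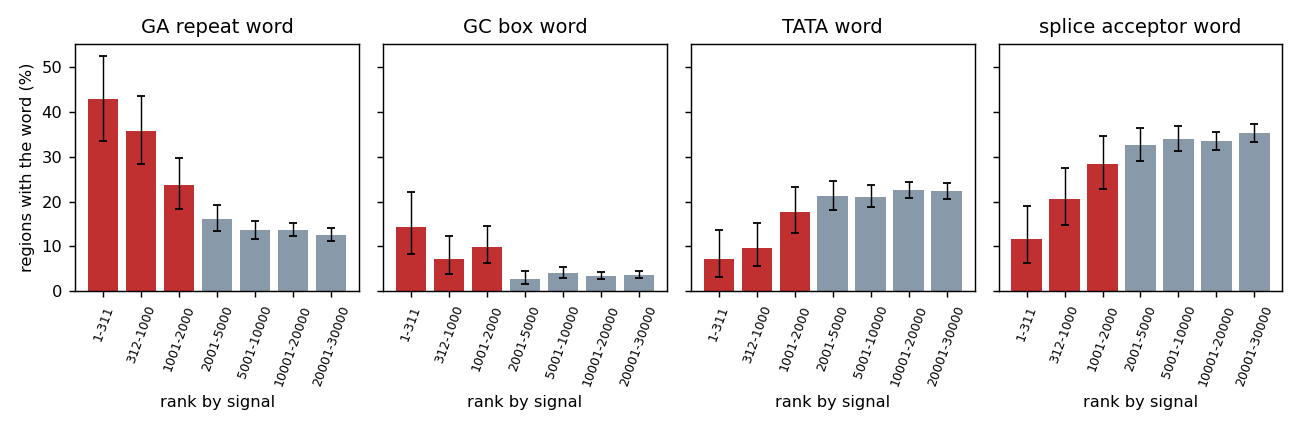
Share of autosomal promoter-proximal regions with a word within 100 bp of the summit (y axis, percent) by rank on the list from both replicates (x axis), for the GA repeat, GC box, TATA and splice acceptor words; members are red, the weaker set grey, and bars carry exact 95% intervals. The GA repeat falls from 42.9% at ranks 1 to 311 to 12.6% beyond rank 20000, while the splice acceptor word rises from 11.6% to 35.4%.

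The GA word was frequent at other strong regions too. Strong autosomal intronic regions had it at 25.3% and distal intergenic ones at 29.4%, and neither gap to the members passed (Fisher's exact test, adjusted p = 0.191 and 0.716 over 18 tests). Along the gene, members carried it in 10.6% of 55 bp stretches centred 25 bp upstream of the summit, and the weaker set in 3.72%. Strong distal intergenic regions carried it there in 12.03% and intronic ones in 8.36%. The coding strand read GAGAGA in 60 of the 162 members, TCTCTC in 81 and both in 21. In the weaker set both orientations were found in 3.78% of the 821 regions with the word, against 12.96% in members. Members with 5′ ends on both strands carried the word at 28.6%, and the others at 32.5%.

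**Figure D4:**
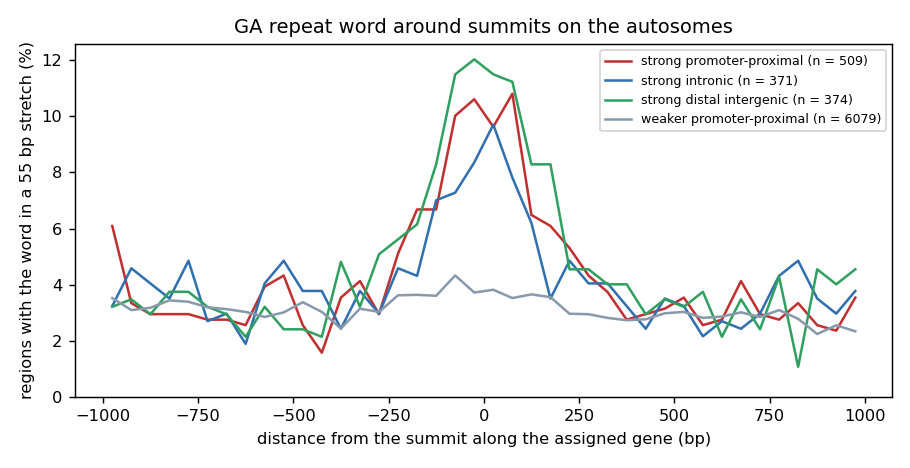
Share of autosomal regions with the GA repeat word in a 55 bp stretch (y axis, percent) by distance from the summit along the assigned gene (x axis, bp, negative values upstream), for the members and 3 other sets. The 3 strong sets peak around the summit, members at 10.8% in the stretch centred 75 bp downstream of it. In the stretch centred 25 bp upstream, members are at 10.6%, distal intergenic regions at 12.03%, intronic ones at 8.36% and the weaker promoter-proximal set at 3.72%.

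The GC box word GGGCGG was found at 51 members (10.02%) and 3.57% of the weaker set (Fisher's exact test, adjusted p = 4.7e-09). It was more frequent than at strong intronic regions (4.58%) and distal intergenic ones (4.81%; Fisher's exact test, adjusted p = 0.0446 for both). In replicate 2 alone the gap to the weaker set was 1.94 percentage points and did not pass (Fisher's exact test, adjusted p = 0.091), nor did its gaps to the other strong classes (adjusted p = 0.9 for both). In replicate 1 alone the gap to intergenic regions passed at 5.62 percentage points (Fisher's exact test, adjusted p = 0.002), and that to intronic regions, 3.91, did not (adjusted p = 0.0776). The call against intronic regions therefore held in neither replicate alone. Members with it included hel-1, tasp-1 and sor-1. GAGAGA and the GC box stood together at 24 members.

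Other words were less frequent at members than in the weaker set. TTTCAG was at 113 members (22.2%) and 34.2% of the weaker set, and TATAAA at 65 (12.8%) and 22.1% (Fisher's exact test, adjusted p = 4.6e-08 and 5.9e-07). TGATAA was at 15.7% and 20.1% (Fisher's exact test, adjusted p = 0.0313), and did not pass in replicate 1 alone (adjusted p = 0.276) or without the members on the optimal list (adjusted p = 0.907). TATAAA did not pass in replicate 1 alone, at -4.07 percentage points (Fisher's exact test, adjusted p = 0.0846). At the other strong classes, TTTCAG was at 24.3% of intronic and 21.1% of intergenic regions and TATAAA at 17.3% and 15.8%, and none of these gaps to members passed. TATAAA was more frequent at promoter regions than at intergenic ones in replicate 1 alone, by 7.48 percentage points (Fisher's exact test, adjusted p = 0.0163).

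For the words of the factor's own family no difference from the weaker set was detected within 100 bp. TGATNNAT stood at 83 members (16.3%, 95% interval 13.2 to 19.8) and 16.8% of the weaker set (Fisher's exact test, adjusted p = 0.906), and at 17.3% and 16.9% of the flanks upstream and downstream. It was at 22.995% of strong distal intergenic regions, a gap that did not pass (Fisher's exact test, adjusted p = 0.0913), though it did on the list of replicate 1 alone (adjusted p = 0.0097). TAATTA stood at 38 members (7.47%) and 9.67% of the weaker set (Fisher's exact test, adjusted p = 0.173). Within 150 bp of the summit TAATTA was less frequent at members, by -4.36 percentage points (Fisher's exact test, adjusted p = 0.0114; the other alternatives gave 0.0836 to 1). TGACTCA was at 13 members (2.55%) and CACGTG at 22 (4.32%), and neither passed. None of the 9 words was found at 117 members (22.99%).

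Base composition moved with these shares. The median GC content of the 201 bp window was 40.8% in members, 35.3% in the weaker set and 38.8% in both strong intronic and distal intergenic regions. Among members it was 44.3% where both replicates had the region in their top 2000, 39.3% for replicate 1 alone, 40.8% for replicate 2 alone and 35.8% for neither. Both sets were then limited to 35.3% to 45.3% GC, which kept 269 members and 2748 weaker regions but did not match GC inside that range. The gap for GAGAGA there was 9.13 percentage points, against 18.3 among all regions. That for the GC box was 3.85, against 6.45. Within the limit both passed. TATAAA also passed, at -8.55. TTTCAG, at -6.87, and TGATAA, at -1.96, did not pass there (Fisher's exact test, adjusted p = 0.0539 and 0.582).

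In a comparison added after the data were seen, all 2080 words of 6 bases, each pooled with its reverse complement, were compared in the same way. Members had 256 words at a higher share (12.3% of those tested) and 166 at a lower share (7.98%; Fisher's exact test, adjusted over all 2080). Of the 256, 142 contained CG, and of the 166, 157 had 2 or fewer G or C bases. The word of lowest p among the higher ones was AGAGAG, the same repeat read from the next base (28.1% against 10.4%, Fisher's exact test, adjusted p = 2.4e-22). It was followed, after GAGAGA, by CGTCTC (21.02% against 7.04%, Fisher's exact test, adjusted p = 5.4e-19) and then by ACGCAG (15.5% against 5.03%, adjusted p = 4.9e-14). The lower word of lowest p was AAAATT (41.5% against 59.5%, Fisher's exact test, adjusted p = 1e-12). Within the limited range of GC, 35 words passed, 25 higher and 10 lower, and each also passed in the same direction among all regions. CGTCTC and ACGCAG were among them (Fisher's exact test, adjusted p = 0.0112 and 0.0027), and AAAATT was not (adjusted p = 0.151).

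The genes at these promoters were grouped by name. Of the 17242 autosomal coding genes, 495 (2.87%) had a member assigned by its nearest 5′ end. An assignment names a neighbour and does not show that the gene is regulated.  Among cytosolic ribosomal protein genes, whose products build the ribosome, 14 of 79 had a member (17.7%, 95% interval 10.04 to 27.9). With every 5′ end in the window counted, 22 of 79 had one (27.8%), against 3.47% of all autosomal coding genes. These 22 genes shared 20 members, of which 13 had coding 5′ ends on both strands and 13 were at ranks 1 to 311. Of the 14 genes assigned by their nearest 5′ end, rpl-15, rpl-35, rpl-3 and rpl-12 had the strongest members. Among all 20 members, those with the 5′ ends of rpl-20 (rank 16 of the list) and rps-12 (rank 40) also stood above that of rpl-12 (rank 47). The rpl-12 member was stronger in replicate 1 (rank 20) than in replicate 2 (rank 848). Of the 20, 4 had GAGAGA (20%, against 31.8% of all members), and this difference was not tested. In replicate 1 alone 10 ribosomal protein genes had a region assigned (12.7%, against 2.96% of all autosomal coding genes). In replicate 2 alone 17 had one (21.5%, against 2.62%).

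Translation factors had a member at 4 of 38 genes (10.5%). These were eef-1G (rank 196 of the list), eif-3.C (rank 247), eef-2 (rank 371), which encodes the translocase of elongation, and iff-2 (rank 440), the eIF5A gene. The last 2 were far stronger in replicate 2, with ranks 221 and 166, than in replicate 1, with ranks 4981 and 9147. Splicing proteins had 4 of 42 (9.52%), namely the SR protein genes rsp-6 and rsp-2, the core U5 component prp-8 and the Sm protein gene snr-4. The respiratory chain had 3 of 35 (8.57%: cox-5B, atp-1 and cox-5A) and mitochondrial ribosomal proteins 3 of 70 (4.29%), led by mrps-7 at rank 49. Tubulins and actins had 3 of 15 (20%), with tbb-2 at ranks 132 and 143 in replicates 1 and 2, tba-1 and act-1. Heat shock proteins and chaperonins had 2 of 54 (3.70%), hsp-1 and dnj-13, near the share of all genes. With every 5′ end counted they had 8 (14.8%, against 3.47% of all genes). Small GTPases had 3 of 39 (7.69%, exact interval 1.62 to 20.9), namely rab-3, rab-18 and rho-1. Read from replicate 1 alone they had 3 (7.69%, against 2.96% of all autosomal coding genes), and from replicate 2 alone 1 (2.56%, against 2.62%). With the upstream limit at 500 bp they had 1 (2.56%, against 1.995%). The ubiquitin system had 1 of 47 (2.13%), ubc-3. Proteasome subunits (0 of 33), aminoacyl-tRNA synthetases (0 of 32), vacuolar ATPase subunits (0 of 17) and nuclear pore proteins (0 of 26) had none. Their exact intervals ran up to 10.6%, 10.9%, 19.5% and 13.2%. Each limit lies above the 2.87% of all autosomal coding genes, so these zeros do not show a lower share. Read alone, each replicate had 1 proteasome gene with a region, and replicate 1 also had 1 synthetase gene.

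Among developmental genes the counts were small. Hox genes and their cofactors had 2 of 8 autosomal genes (25%, 95% interval 3.19 to 65.1). The Pbx-class gene ceh-20 had its member 747 bp upstream (III:6978982-6979291, ranks 123 and 347 in replicates 1 and 2). The Meis-class gene unc-62 had 2, the stronger at V:4499507-4499816, 134 bp upstream (ranks 1913 and 2415). Wnt pathway genes had 5 of 26 (19.2%, 95% interval 6.55 to 39.4). These were the Frizzled gene mom-5, the Ror kinase gene cam-1, the Dishevelled gene mig-5, the Wnt ligand gene cwn-1 and the Nemo-like kinase gene lit-1. None of the 5 was in the top 2000 of both replicates: the mom-5 member had ranks 291 and 13000 in replicates 1 and 2, that of cwn-1 6848 and 490, and that of lit-1 1946 and 4049. The stronger cam-1 member had ranks 2407 and 550. The mig-5 member had rank 152 in replicate 1 and was not on the list of replicate 2. In replicate 1 alone 4 Wnt genes had a region (15.4%, against 2.96% of all autosomal coding genes). In replicate 2 alone 2 had one (7.69%, against 2.62%).

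Epidermis and seam genes had 6 of 15 (40%, 95% interval 16.3 to 67.7), all at ranks over 1000. They were elt-1, a GATA factor gene of epidermal fate, lin-26, a zinc finger gene of epidermal fate, lin-28, a timing gene, let-413, the Scribble gene, rnt-1, the RUNX gene, and egl-18, a GATA factor gene of seam cells. In replicate 1 alone 4 epidermal genes had a region (26.7%, against 2.96% of all autosomal coding genes). In replicate 2 alone 0 had one. A promoter region somewhere among the 30000 candidates stood at 12 of the 15 (80%, against 32.2% of all autosomal coding genes). Body wall muscle had 3 of 23 (13.04%): unc-112, the kindlin gene (ranks 204 and 155), hlh-1, the MyoD gene (ranks 3679 and 237), and unc-89, the obscurin gene. The basic helix-loop-helix genes had 2 of 19 (10.5%, 95% interval 1.30 to 33.1), hlh-11 and hlh-1. The ceh homeobox genes had 2 of 45 (4.44%, 95% interval 0.543 to 15.1), ceh-38 and ceh-20. Both intervals take in the 2.87% of all autosomal coding genes, and hlh-1 and ceh-20 were also counted in groups above. No member was assigned in vulval development (0 of 27, 95% interval up to 12.8%) or ventral cord motor neurons (0 of 25, up to 13.7%). The same held for intestine (0 of 12, up to 26.5%), germline (0 of 21, up to 16.1%) and T-box genes (0 of 18, up to 18.5%). These limits all lie above the 2.87% of all autosomal coding genes, so the zeros do not show a lower share. Read alone, each replicate had 2 motor neuron genes with a region (8%). All autosomal coding genes stood at 2.96% in replicate 1 alone and 2.62% in replicate 2 alone.

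Large families of environmental and sensory genes were below the share of all genes, or near it. Chemoreceptor genes had 15 of 1331 (1.13%, 95% interval 0.632 to 1.85), the strongest at sru-7, srj-20, srbc-54 and srh-171. In replicate 2 alone 18 chemoreceptor genes had a region (1.35%, against 2.62% of all autosomal coding genes). In replicate 1 alone 37 had one (2.78%, against 2.96%), so the low share was not seen there. Nuclear hormone receptors had 0 of 246 (95% interval up to 1.49%) and cuticle collagens 0 of 135 (up to 2.696%), although 36.2% and 30.4% of them had a promoter region somewhere among the candidates. In replicate 1 alone 5 nuclear hormone receptor genes (2.03%) and 4 collagen genes (2.96%) had a region, and in replicate 2 alone 2 of each (0.813% and 1.48%). F-box and MATH domain genes had 5 of 378 (1.32%), C-type lectins 5 of 237 (2.11%), neuropeptides 2 of 106 (1.89%) and cytochrome P450s 2 of 67 (2.99%). Histone genes had 3 of 68 (4.41%: his-37, his-32 and his-67), a family of near-identical copies in which the placement of reads is uncertain. The twk potassium channels had 2 of 34 (5.88%), twk-43 and twk-3.

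**Figure D5:**
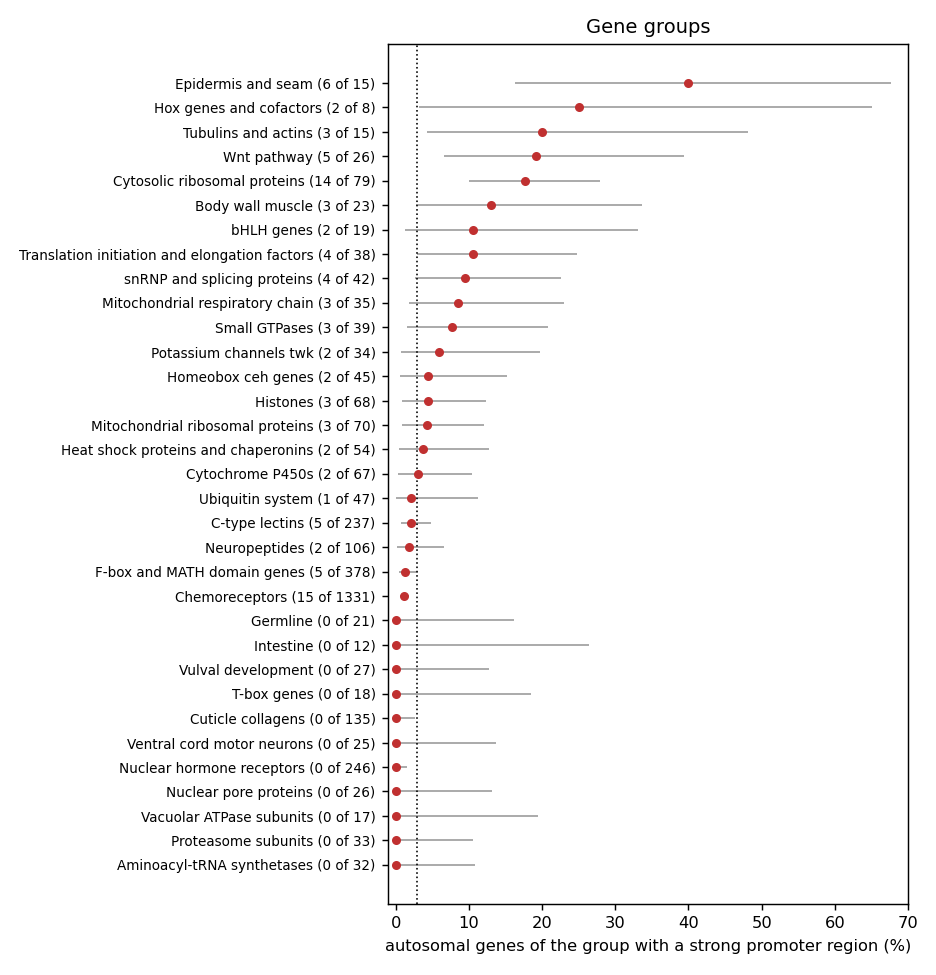
Share of the autosomal genes of each group that had a member assigned (x axis, percent), with counts beside the group names; points are shares, lines exact 95% intervals and the dotted line the 2.87% of all autosomal coding genes. Cytosolic ribosomal proteins stand at 17.7% and chemoreceptors at 1.13%.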

How the data were processed

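ChIP-seq of eGFP-tagged LIN-39 was analysed from the ce11 lists of 2 replicates, of both together, and the optimal list. The deposited signal value per region is the one in the signal column of the authors' lists. No unit for it, and no name of aligner, caller or threshold, is given in the sources used here. Per the deposited text files, each replicate's candidate list came from its own alignments and the list of both from all alignments, each with a further input file that they do not describe. Signal was used to rank within a list only. The ce10 lists were not used. Gene models were Ensembl release 115 on WBcel235 with 19973 coding genes. Each region was assigned to the nearest coding 5′ end inside its window. Shares were compared by two-sided Fisher's exact tests, summits with flanks by exact McNemar tests, each Benjamini-Hochberg adjusted within its family. These p-values treat regions as independent; 508 of 509 members overlapped no stronger member. The programs were checked on sequences made with known words. Named genes were those of the 15 strongest members, up to 4 strongest per gene group, the gene with the most members, the regions at the limits and the 3 widest replicate gaps each way. Where groups had up to 6 genes, those beyond 4 were named after their values were seen, as were the pairs of genes on opposite strands and those beside small RNA genes. The members, words and gene groups were chosen with earlier results of these data known. Python 3.11.15, NumPy 2.4.6, SciPy 1.17.1, pandas 2.3.3 and matplotlib 3.10.9 were used.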

Additional observations from a re-analysis of the deposited data

How the results depend on the processing

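The gap between members and the weaker set for GAGAGA kept its direction and its call in every alternative run, at 9.13 to 29.4 percentage points. The gap for 5′ ends on both strands also kept both, at 4.17 to 18.5. All values that follow are gaps in percentage points unless named otherwise, and the cause of each change was not tested.

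With the upstream limit at 500 bp, the gap was 0.221 for TGACTCA, -2.91 for summits near the 5′ end and -1.70 for chromosome IV. With a rank limit of 1000 it was -0.453 for CACGTG and -0.946 for summits near the 5′ end, and 270 genes had a member. Among members on the optimal list it was 0.112 for TGACTCA. Among the other members, an alternative chosen after seeing the data, it was 0.585 for TGATNNAT, -1.18 for TGATAA, -0.0329 for CACGTG, 1.41 for small RNA genes, 0.761 for chromosome II and -1.12 for IV. With the most upstream 5′ end of each gene it was -0.637 for CACGTG. Within 50 bp of summits it was 1.35 for TGATNNAT, -2.13 for TGATAA, 0.617 for TGACTCA and -0.240 for CACGTG. Within 150 bp TAATTA passed at -4.36. In the limited GC range it was -1.96 for TGATAA, 1.39 for TAATTA and -6.87 for TTTCAG. Without long GA runs it was 0.045 for TGACTCA. After rank 1000 of the choosing replicate, recovery against intronic regions was 2.51 and 5.79, and against intergenic regions, chosen in replicate 2, -3.18.

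From 1 replicate's list at a time, the lowest and highest gaps to the weaker set were -4.99 and -2.65 for TGATAA, -2.64 and 0.0107 for TAATTA, -0.808 and 0.169 for TGACTCA, and -5.43 and -4.07 for TATAAA. They were -1.94 and 0.0397 for TGATNNAT, 1.94 and 4.40 for GGGCGG, and -3.74 and 1.43 for summits near the 5′ end. For chromosomes they were 3.74 and 7.63 for I, -0.163 and 0.706 for III, -1.37 and 0.569 for IV, and -5.31 and -1.74 for V. Against the upstream flank they were -0.216 and -0.191 for TGACTCA, -8.64 and -2.10 for TATAAA, and 2.81 and 3.82 for GGGCGG. Against the downstream flank they were -2.81 and 1.91 for TGATAA, -1.72 and 1.94 for TGATNNAT, -6.26 and -0.763 for TATAAA, and 3.46 and 5.15 for GGGCGG. Against intronic regions they were -0.764 and 0.193 for TAATTA, 0.908 and 1.18 for TATAAA, 1.36 and 3.91 for GGGCGG (neither passed), -1.06 and 2.22 for TGATAA, and -0.452 and 0.794 for TGACTCA. Against intergenic regions they were -8.56 and -2.80 for TGATNNAT, -0.0355 and 0.887 for TGATAA, -4.36 and 0.311 for TAATTA, and -0.213 and -0.162 for CACGTG. For the rest against intergenic regions they were -0.196 and 7.48 for TATAAA, -6.10 and 1.28 for GAGAGA, -0.584 and 0.384 for TGACTCA, and 2.22 and 5.62 for GGGCGG.

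No paired analysis was possible because there was 1 group. The lists give no read counts, so depth could not be weighed, and no list of a control library was used.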
